A study of Mus musculus with 4 samples.

Results

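The genes followed here are the 3 genes that carry a miR-26 precursor in an intron, Ctdsp1, Ctdsp2 and Ctdspl, and 5 genes reported as targets of miR-26, namely Ezh2, Tet1, Tet2, Tet3 and Tdg. They were picked by gene symbol and not by a cut on their values, though with earlier results of these data known, and all 8 were found among the 55450 genes with read counts and the 55141 genes with deposited TPM, reads scaled to gene length and library size. Articular chondrocytes from the femoral heads of 3-week-old mice were cultured, and RNA was sequenced from the 3′ ends of the mRNAs in 4 libraries, 1 per condition. The WT library was labelled wild type, of strain C57BL/6, whereas the methods of the study describe control mice as carrying floxed miR-23a/b clusters, while its results call the sequenced chondrocytes wild-type, so whether this library carried floxed alleles cannot be told apart here. The miR-26a KO library came from miR-26a -/- mice of strain C57BL/6, and the sources do not say whether Mir26a-1, Mir26a-2 or both were removed. The third library was of miR-26a -/- chondrocytes (strain C57BL6/J) transfected with a double-stranded miR-26a mimic. The Cart-miR-23clus KO library, used as a reference, was of genotype Col2a1-cre with floxed miR-23a/b clusters (C57BL/6), in which the promoter of the collagen gene Col2a1 drives Cre in chondrocytes. A control siRNA is named beside the mimic in the labels, but not the library that received it, so the mimic and its transfection cannot be told apart. Each condition is a single culture, no spread between cultures could be estimated, and no test between conditions was made.

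MicroRNAs guide Argonaute proteins to mRNAs, mostly through pairing of their seed (bases 2 to 8) with the 3′ UTR, and lower the stability or translation of the mRNA. The miR-26 precursors lie in introns of genes for small C-terminal domain phosphatases, which remove phosphates from RNA polymerase II, work with the repressor REST at neuronal genes and can dephosphorylate the retinoblastoma protein. Among the reported targets, Ezh2 is the methyltransferase of Polycomb repressive complex 2, which marks histone H3 in silenced genes. Tet1, Tet2 and Tet3 oxidise 5-methylcytosine, and Tdg is the glycosylase that removes the oxidised bases, so that base excision repair can restore cytosine. In cartilage, miR-26a has been studied for its effects on matrix genes and inflammation.

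The mature miR-26 sequences are shown because the seed they share is what was sought in the mRNAs. They are RefSeq sequences (GRCm38.p6), the 2 mimic strands are those of the labels, and capitals mark bases 2 to 8.
mmu-miR-26a-5p: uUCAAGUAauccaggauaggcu
mmu-miR-26b-5p: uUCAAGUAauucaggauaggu
mimic sense strand: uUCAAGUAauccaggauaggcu
mimic antisense strand: cCUAUUCUugguuccuugcacg
mmu-miR-26a-1-3p: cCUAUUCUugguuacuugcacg
The sense strand of the mimic was identical to miR-26a-5p over its 22 bases. Its antisense strand differed from miR-26a-1-3p by 1 substitution, A14C, counted from the 5′ end with the base of the natural strand first. The precursors Mir26a-1 (chr9:119031796-119031885) and Mir26a-2 (chr10:126995530-126995613) give the same miR-26a-5p. Mir26b (chr1:74394310-74394394) gives miR-26b-5p, which has the same seed and differs from miR-26a-5p by C11U and C21U and by being 1 base shorter.

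All 3 precursors lay within introns of their hosts and on the same strand. Mir26b was in intron 4 of 6 of Ctdsp1 (ENSMUSG00000026176, chr1:74391509-74397285), an intron of 564 bases. Mir26a-2 was in intron 5 of 7 of Ctdsp2 (ENSMUSG00000078429, chr10:126978717-126999975), 4362 bases before the end of the gene. Mir26a-1 was in intron 5 of 7 of Ctdspl (ENSMUSG00000047409, chr9:118926453-119043998), 12113 bases before the end. The libraries were primed from poly(A) and read the 3′ ends of mRNAs, so host reads come from the last exons, outside these introns. The rows of Mir26a-1, Mir26a-2 and Mir26b had 0 reads in every library, which gives no check of the miR-26a genotype.

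**Figure D1:**
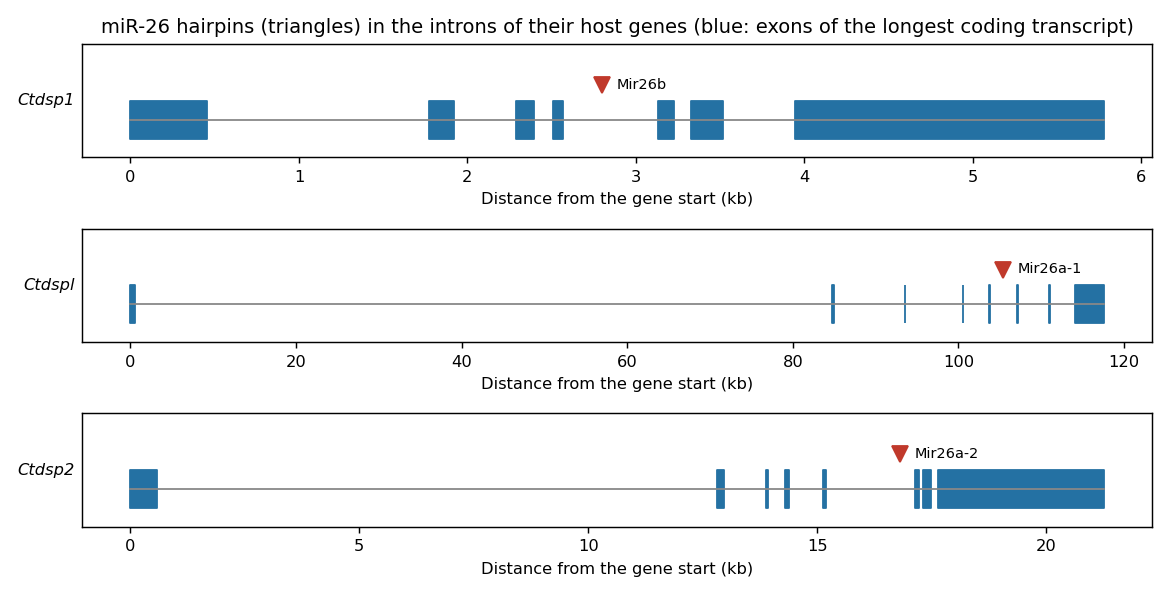
Position of the miR-26 precursors (red triangles) in their host genes, drawn by distance from the gene start in kb, with the exons of the longest coding transcript in blue and introns as a line. Mir26b lies in intron 4 of 6 of Ctdsp1, and Mir26a-1 and Mir26a-2 in intron 5 of 7 of Ctdspl and Ctdsp2.

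The reverse complement of the seed, TACTTGA, was sought on the mRNA strand in the longest annotated 3′ UTR of each gene, and it was present in that of 2034 of 20659 genes (9.85%). All 5 reported targets held it, as did Ctdsp2 among the hosts, while Ctdsp1 and Ctdspl held none. The matches are shown in up to 30 bases of the GENCODE transcripts (GRCm38), with the 7 matching bases in capitals, since they are the sequences to which the mimic could pair.
Ctdsp2, chr10:126997551-126997580, plus strand: cccaagtgttgctctTACTTGAtttgccaa
Ezh2, chr6:47530279-47530308, minus strand: aatttgaataaagaaTACTTGAacttgttg
Tet1, chr10:62804919-62804948, minus strand: gacgcttcgtagcagTACTTGAatacctgt
Tet1, chr10:62804887-62804916, minus strand: gttggaattgcatgtTACTTGAaagatcta
Tet2, chr3:133464900-133464929, minus strand: cataccatttttaaaTACTTGAtttcttag
Tet2, chr3:133464014-133464043, minus strand: gcttggtgtcaacatTACTTGAatgaattt
Tet3, chr6:83362796-83362825, minus strand: tgaacttaacaaccaTACTTGAatattccg
Tet3, chr6:83362759-83362788, minus strand: tttgtaaactgtggcTACTTGAaatgaagt
Tdg, chr10:82648903-82648932, plus strand: aaatagggtgttttgTACTTGAgttttgta
The match was followed by an A, as in the 8-base form TACTTGAA, in Ezh2, at both matches of Tet1 and Tet3 and at 1 of the 2 of Tet2. That form was in the longest 3′ UTR of 4.26% of genes. The 2 matches of Tet1 began 32 bases apart and those of Tet3 37 bases apart, both pairs near the end of the 3′ UTR. The single match of Ezh2 lay 248 bases after the stop codon in a 3′ UTR of 402 bases. Long 3′ UTRs held the match more often: among other genes whose 3′ UTR was within 20% of the same length, the share with a match was 2.85% for the length of Ezh2, 13.4% for Tdg, 19.9% for Tet2, 23.1% for Ctdsp2, 34.3% for Tet3 and 45.0% for Tet1. For the lengths of Ctdsp1 and Ctdspl, which held none, the shares were 10.9% and 22.2%. A match is a property of the letters, and no binding was measured. Genes may be reported as targets because they hold such a match. The matches of reported targets, here and in a longer list below, are therefore no support from these data.

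**Figure D2:**
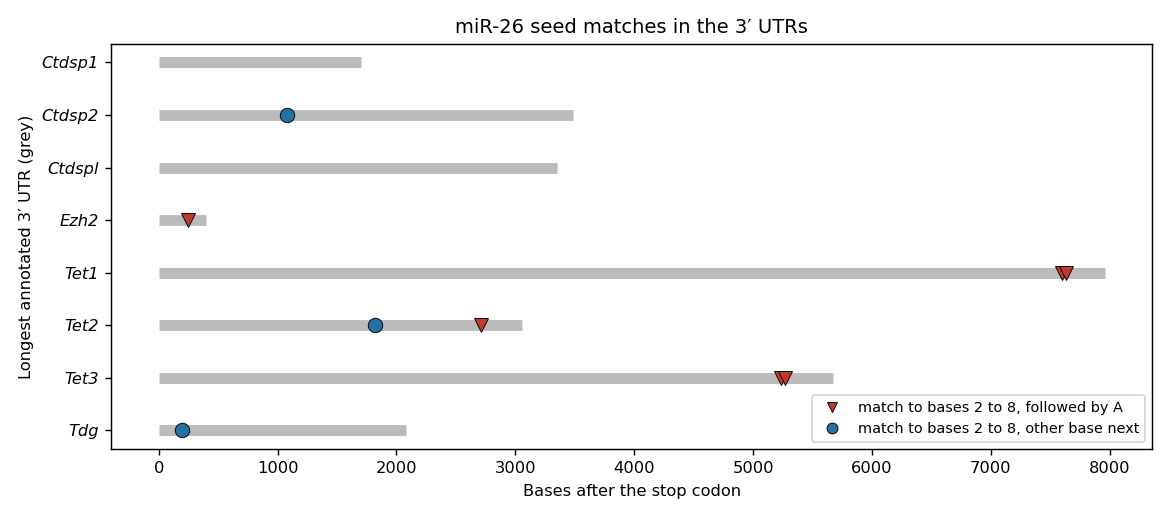
Matches to the miR-26 seed in the longest annotated 3′ UTR (grey bars) of the 8 genes, by bases after the stop codon; red triangles are matches followed by A, blue circles the others. The reported targets hold 1 or 2 matches each, Ctdsp2 holds 1, and Ctdsp1 and Ctdspl hold none.

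Between 1328042 and 1498579 reads per library fell on the genes of the TPM table, the reads of the mimic library having been worked back from its TPM. At these depths the level of 3 reads, used here as a limit, was 2.00 to 2.26 CPM (reads scaled to the library total). A gene with 0 reads could still be present at that level or somewhat above it. By the exact Poisson intervals used below, Tdg at 0 reads could reach 2.55 CPM with the mimic and 2.78 in Cart-miR-23clus KO. Marker genes of chondrocytes were abundant in all 4 libraries, with 25154 to 35871 reads of Col2a1, and all 18 genes of that list had reads everywhere. Their sum was not level, with 41117 CPM in WT and 30937.7 to 31677.5 in the other libraries. Of the 6 endothelial markers, 5 or 6 were at 0 in each library. Markers of other cells also moved between the libraries: the 14 macrophage genes summed to 843 CPM in WT, 296 in miR-26a KO, 540 with the mimic and 992 in Cart-miR-23clus KO. The 9 osteoblast genes summed to 34886 CPM in WT and to 8567 to 19087 in the other libraries, and the 38 cell cycle genes to 629.9 CPM in WT and to 1253 to 1349.7 in the others. The sums of the 6 adipocyte genes ran from 205 CPM in miR-26a KO to 851 in Cart-miR-23clus KO, and those of the 8 fibroblast and contractile genes from 1183 to 1364. In bulk RNA, fewer cells of a type and less RNA per cell cannot be told apart, and the part of these markers in the values below was not tested.

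Of the hosts, the miR-26a KO library held more Ctdsp1 than WT, Ctdspl was level across the libraries, and Ctdsp2 was highest in WT. Folds below are ratios of the deposited TPM, and the 95% intervals are exact binomial (Clopper-Pearson) intervals on the reads that cover counting error only, so they compare these libraries and not the conditions. Ctdsp1 had 50 reads in WT, 72 in miR-26a KO, 79 with the mimic and 56 in Cart-miR-23clus KO, or 16.6, 26.3, 27.0 and 20.5 TPM. Its TPM was therefore lowest in WT, intermediate in Cart-miR-23clus KO and highest in the 2 miR-26a -/- libraries. The ratio of miR-26a KO to WT was 1.58 (95% interval 1.09 to 2.32), and that of the mimic library to WT 1.62 (1.13 to 2.38). A 99% interval includes 1 for the former and stays above 1 for the latter. With the mimic against miR-26a KO the ratio was 1.03 (0.740 to 1.44). The Cart-miR-23clus KO library, at 1.23 times WT (0.848 to 1.89), lay between the others.

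Ctdsp2, the host of Mir26a-2 and the host that itself holds a seed match, had 300 reads in WT, 250 in miR-26a KO, 230 with the mimic and 200 in Cart-miR-23clus KO. In TPM these were 59.6, 54.6, 46.9 and 43.8. Its ratio of miR-26a KO to WT was 0.915 (0.772 to 1.09), an interval that includes 1. The mimic library stood at 0.860 of miR-26a KO (0.720 to 1.04) and at 0.787 of WT (0.665 to 0.944). Cart-miR-23clus KO was the lowest library, at 0.734 of WT (0.626 to 0.903) and 0.802 of miR-26a KO (0.678 to 0.993), of which the latter includes 1 at 99%. The clusters deleted in that library do not include the miR-26a genes.

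Ctdspl, the host of Mir26a-1, was the member with the most reads and the flattest: 365 in WT, 332 in miR-26a KO, 385 with the mimic and 323 in Cart-miR-23clus KO, or 76.1, 76.1, 82.4 and 74.2 TPM. The ratio of miR-26a KO to WT was 0.999 (0.859 to 1.16), the narrowest interval among the 8 genes in that comparison. Its highest and lowest libraries were 1.11-fold apart (0.940 to 1.27). Reads of the 3 hosts together, a sum taken after the values were seen, gave 477 CPM in WT (exact Poisson 95% interval 443 to 513), 480 in miR-26a KO (444 to 518), 479 with the mimic (444 to 516) and 436 in Cart-miR-23clus KO (401 to 473). The sum of the family was level between WT and the miR-26a -/- libraries.

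**Figure D3:**
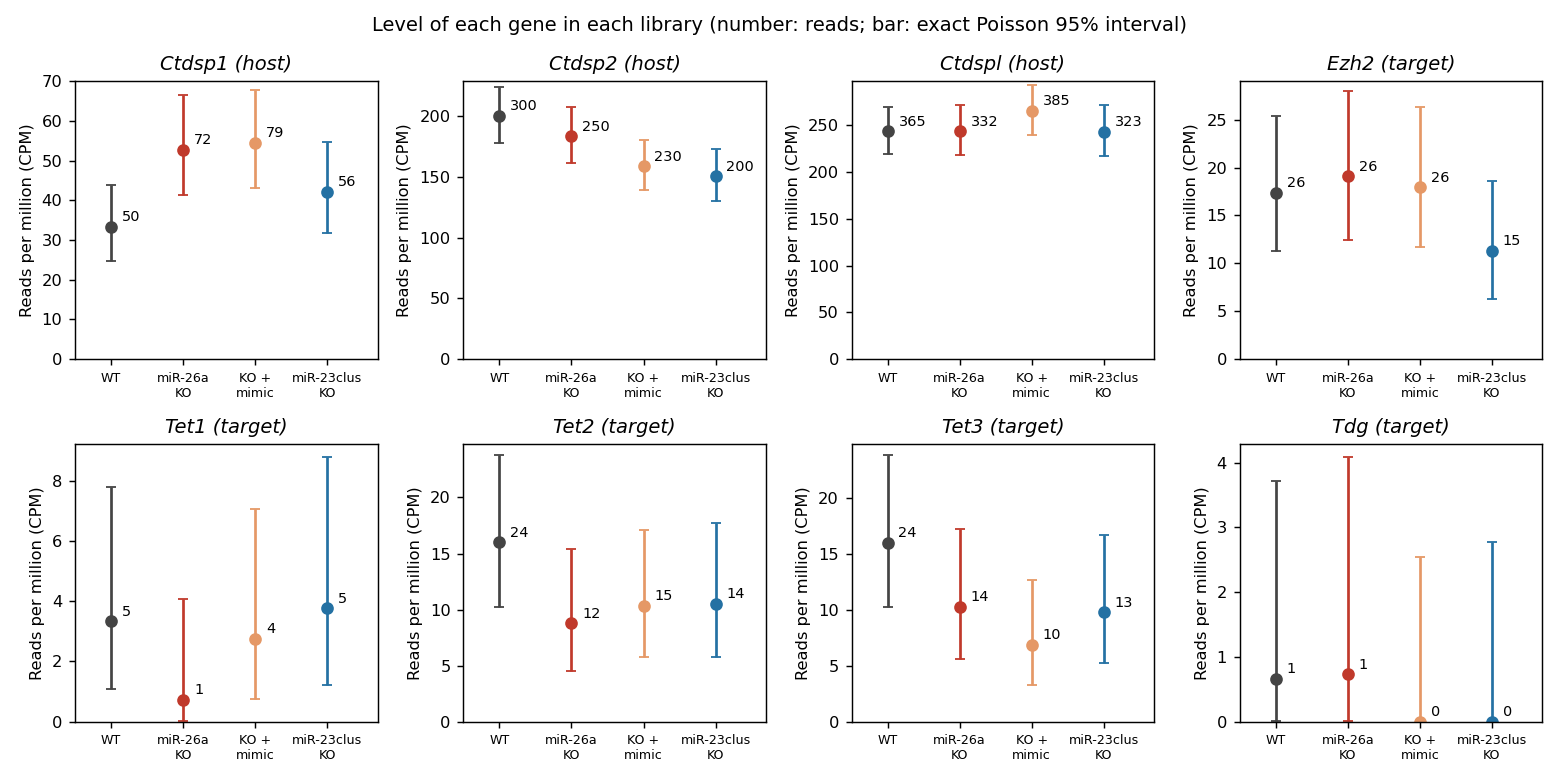
Level of each gene in each library in CPM (linear axes from 0), with the number of reads beside each point and the exact Poisson 95% interval as the bar; there is 1 library per condition. Ctdsp1 is lowest and Ctdsp2 highest in WT, Ctdspl is level, and Tdg is at 0 or 1 read in every library.

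Of the reported targets other than Tdg, none had an interval above 1 in miR-26a KO over WT. Of all genes with at least 20 reads in the 2 libraries together, 11.2% had one. Tet2 and Tet3 had fewer reads there than in WT, with intervals that include 1. Ezh2 (ENSMUSG00000029687, chr6:47530139-47595341) had 26 reads in each of WT, miR-26a KO and the mimic library, and 15 in Cart-miR-23clus KO. In TPM these were 31.7, 34.8, 32.5 and 20.1. The ratio of miR-26a KO to WT was 1.10 (0.613 to 1.97) and that of the mimic library to miR-26a KO 0.934 (0.525 to 1.69), so changes of up to about these limits in either direction were not detectable at this depth. Cart-miR-23clus KO was at 0.635 of WT (0.321 to 1.28). The authors' TPM of Ezh2 rests on a length of 785 bases, that of a short transcript, while the longest coding transcript has 2787 bases, at which its WT level would be 8.93 TPM. The choice of length cancels in the ratios.

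Tet2 (ENSMUSG00000040943, chr3:133463679-133545139) had 24 reads in WT, 12 in miR-26a KO, 15 with the mimic and 14 in Cart-miR-23clus KO, or 2.50, 1.37, 1.61 and 1.61 TPM. WT was the highest and the 3 other libraries were close together. The ratio of miR-26a KO to WT was 0.549 (0.251 to 1.14), and of the mimic library to miR-26a KO 1.17 (0.514 to 2.75). Tet3 (ENSMUSG00000034832, chr6:83362373-83459084) had 24, 14, 10 and 13 reads in the same order, or 2.11, 1.35, 0.901 and 1.26 TPM. Here too WT was the highest, with the mimic library the lowest of the 4. The ratio of miR-26a KO to WT was 0.641 (0.307 to 1.29), of the mimic library to miR-26a KO 0.667 (0.267 to 1.63) and of the mimic library to WT 0.428 (0.184 to 0.935), the last of which includes 1 at 99%.

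Tet1 (ENSMUSG00000047146, chr10:62804570-62908996), the third of the dioxygenases, was barely sampled, with 5 reads in WT, 1 in miR-26a KO, 4 with the mimic and 5 in Cart-miR-23clus KO, or 0.333, 0.0732, 0.273 and 0.367 TPM. From 1 read in miR-26a KO, the ratio to WT was 0.220 with an interval of 0.00465 to 1.97, and the ratio of the mimic library to miR-26a KO was 3.74 with an interval of 0.372 to 185. Both intervals include 1 and give no direction. Reads of the 3 Tet genes together, again summed after the values were seen, gave 35.4 CPM in WT (exact Poisson 95% interval 26.5 to 46.3), 19.8 in miR-26a KO (13.1 to 28.8), 20.0 with the mimic (13.4 to 28.7) and 24.1 in Cart-miR-23clus KO (16.5 to 34.0). WT had the highest sum, but its interval overlaps that of each of the 3 other libraries.

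Tdg (ENSMUSG00000034674, chr10:82629828-82650799) had 1 read in WT, 1 in miR-26a KO and 0 in the other libraries, at or under the level of 3 reads everywhere, so no fold is given. The end of its longest transcript overlaps 367 bases of Glt8d2, a gene on the opposite strand that had 18, 43, 46 and 31 reads in WT, miR-26a KO, the mimic library and Cart-miR-23clus KO. How the counting treated strand is not given in the sources used here, so reads of the shared stretch could fall to either gene or to none, and the low count of Tdg is uncertain for transcripts with that end. The other 4 annotated coding transcripts of Tdg, among them the one whose length of 2959 bases the TPM uses, end outside Glt8d2. The ends of the longest transcripts of the other 7 genes shared no stretch of 75 bases with another gene.

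Across the 8 genes, Ctdspl and Ctdsp2 had the highest TPM in every library, Tet2 and Tet3 were between 0.901 and 2.50 TPM, and Tet1 and Tdg were below 0.5 TPM. Reads come from 3′ ends, so TPM compared between genes depends on the length each was divided by. In WT, Ezh2 had 26 reads and 31.7 TPM, while Ctdsp1 had 50 reads and 16.6 TPM. Libraries that neighbour each other in a gene's order of levels, which are the closest pairs by construction, did not differ beyond their counting intervals in any of the 7 genes other than Tdg.

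Shares of all genes give the scale for these counts. Ratios were counted over genes with at least 20 reads in the 2 libraries together, which leaves 6 of the 8 genes in every comparison, without Tet1 and Tdg. In miR-26a KO over WT none of the 6 was above 2 or below 0.5, against 3.88% and 3.50% of the 9545 genes tested. At the 1.5-fold level 1 was above (Ctdsp1) and 2 were below 0.667 (Tet2 and Tet3), against 11.2% and 10.1% of all. The interval was above 1 for Ctdsp1 alone and below 1 for none, against 11.2% and 8.55% of all genes. The median ratio of the 6 was 0.957, beside 1.02 over all genes tested.

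With the mimic, as compared with miR-26a KO, none of the 6 genes passed either fold level and none had an interval that excludes 1. Over the 9471 genes tested, 1.89% were above 2, 1.46% below 0.5, 6.88% above 1.5 and 6.92% below 0.667, and the interval was above 1 for 5.45% and below 1 for 4.77%. The 3 targets tested had ratios of 0.934 (Ezh2), 1.17 (Tet2) and 0.667 (Tet3), with a median of 0.934 beside 0.997 over all genes. In the mimic library over WT, Tet3 was below 0.5, Tet2 and Tet3 were below 0.667 and Ctdsp1 was above 1.5. Of the 9638 genes tested there, 3.83% were above 2, 2.76% below 0.5, 10.7% above 1.5 and 9.16% below 0.667. The interval was above 1 for Ctdsp1 and below 1 for Ctdsp2 and Tet3, against 10.8% and 7.64% of all.

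In the reference library, Cart-miR-23clus KO over WT, none of the 6 passed 2-fold, and 3 (Ezh2, Tet2 and Tet3) were below 0.667. The shares of all 9573 genes were 4.73% above 2, 4.38% below 0.5, 12.5% above 1.5 and 12.8% below 0.667. Only Ctdsp2 had an interval that excludes 1, on the lower side, against 13.1% of genes above 1 and 10.7% below. The comparisons with WT share that library, and those with miR-26a KO share that one, so their values are given side by side and are not independent.

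**Figure D4:**
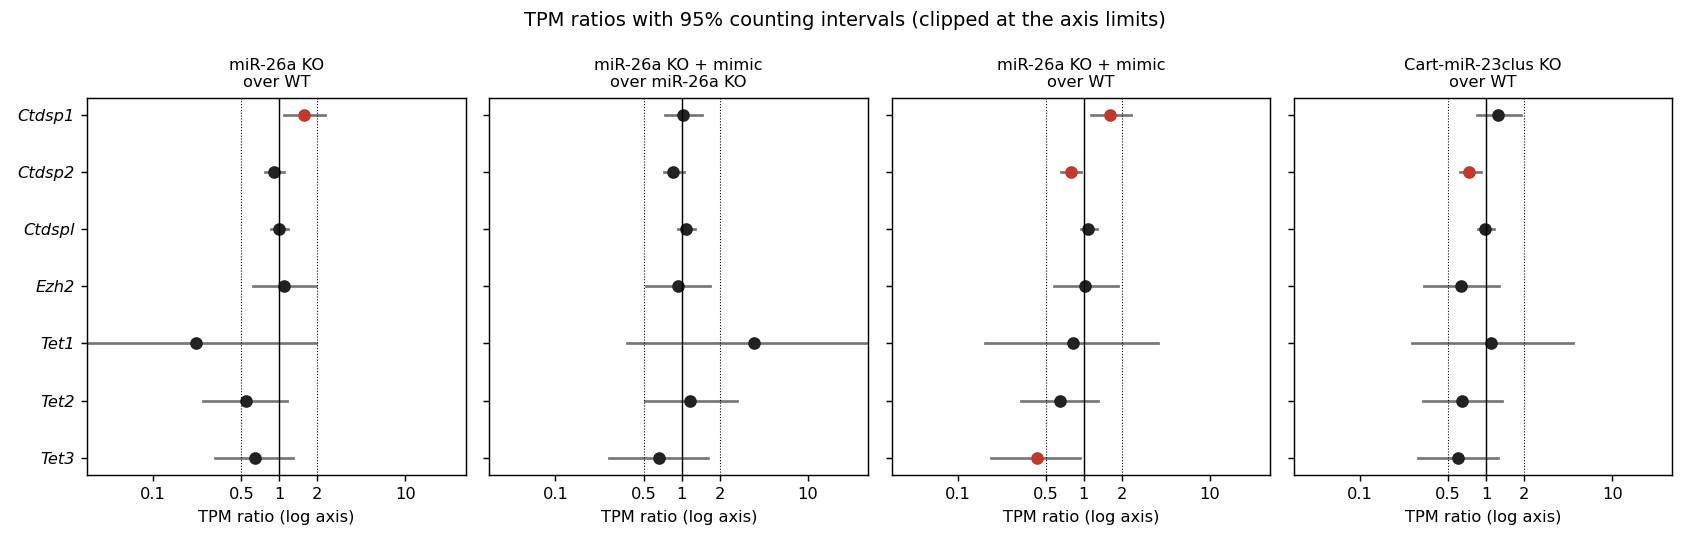
TPM ratios (log axis) of 7 genes in the 4 comparisons, with the 95% counting interval as a line, clipped at the axis limits for Tet1; red points have an interval that excludes 1, and dotted lines mark ratios of 0.5 and 2. Red points are Ctdsp1, Ctdsp2 and Tet3, and there are none in the mimic library over miR-26a KO.

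The genes whose levels over the 4 libraries were most like those of a host were sought among 6545 other genes with at least 20 reads in every library, by the root mean square difference of centred log2 CPM. They were Coq7, Myof and Oxnad1 for Ctdsp1 (differences of 0.016 to 0.023), Ctnna1, Pggt1b and Atad2b for Ctdsp2 (0.017 to 0.020), and Flot1, Sesn3 and Anxa6 for Ctdspl (0.0061 to 0.0086). Coq7 had 32, 47, 51 and 37 reads in WT, miR-26a KO, the mimic library and Cart-miR-23clus KO. Over only 4 libraries such likeness is a description of these levels. The 5 reported targets were below 20 reads in at least 1 library and were not compared in this way.

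Lists of genes related to the hosts and targets were described by counts beside all genes. Of 5 phosphatases related to the hosts, none passed 2-fold in miR-26a KO over WT, and 4 of 5 had a ratio below 1, as did 47.4% of all genes tested (median 0.847, beside 1.02 over all genes). Ssu72, a phosphatase of the polymerase C-terminal domain and the most abundant of them, had 153, 118, 133 and 137 reads in the 4 libraries in the order used above. Of 6 genes of REST, the retinoblastoma protein and their partners or relatives, none passed 2-fold there, with a median of 1.12. Rbl2, a relative of the retinoblastoma protein, had 55 reads in WT and 74 in miR-26a KO, a ratio of 1.48 (1.03 to 2.14). In the mimic library it had 66 reads, 1.23 times WT in TPM (0.854 to 1.81), an interval that includes 1. In Cart-miR-23clus KO it had 88 reads, 1.76 times WT in TPM (1.27 to 2.58). The repressor Rest had 84 and 93 reads, a ratio of 1.22 (0.897 to 1.66).

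Of 11 further genes of Polycomb repressive complex 2, 8 were tested in miR-26a KO over WT, none passed 2-fold and the median was 1.03. The histone-binding subunit Rbbp4 had 555 reads in WT and 522 in miR-26a KO, a ratio of 1.03 (0.916 to 1.17). The core subunit Suz12, whose 3′ UTR holds a seed match, had 16, 19, 23 and 23 reads, and the subunit Eed, which has none, had 52, 36, 44 and 41. Their ratios of miR-26a KO to WT were 1.30 (0.636 to 2.71) and 0.760 (0.483 to 1.19).

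Of 17 genes of active demethylation and repair, 13 were tested in miR-26a KO over WT, none passed 2-fold and the median was 1.06. None of the 17 holds a seed match. Apex1, the endonuclease that acts after the glycosylase, had 70 reads in WT and 91 in miR-26a KO, a ratio of 1.43 (1.04 to 1.98). It was also above WT in the mimic library, at 1.41 (1.03 to 1.96), and in Cart-miR-23clus KO, at 1.73 (1.30 to 2.43). The glycosylase Smug1 had 39 and 23 reads, a ratio of 0.648 (0.370 to 1.11). Of 8 genes of DNA methylation, 6 were tested and none passed 2-fold, with a median of 1.02. The de novo methyltransferase Dnmt3a, which holds a seed match, had 70 reads in WT, 32 in miR-26a KO, 40 with the mimic and 27 in Cart-miR-23clus KO. Its ratio to WT was 0.502 (0.320 to 0.774) in miR-26a KO and 0.425 (0.268 to 0.687) in Cart-miR-23clus KO, lower in both.

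Of 24 other genes reported as miR-26 targets in various tissues, 18 hold the seed match. The 18 genes tested in miR-26a KO over WT are a different set, 15 with a match and 3 without. Of those tested, 14 had a ratio above 1 (12 with a match and 2 without), as did 52.6% of all genes tested. Their median was 1.16, beside 1.02 over all genes, with 1 above 2 and none below 0.5. Of the 17 tested with the mimic over miR-26a KO, 12 had a ratio below 1, as did 50.5% of all genes tested, and the median was 0.931, beside 0.997. The miR-26a KO library is above the line in the former ratio and below it in the latter. Error in that library alone therefore moves the ratios in opposite directions. The same list in Cart-miR-23clus KO over WT had a median of 1.11, beside 0.987 over all genes, with 10 of 17 above 1, as were 48.5% of all genes tested. The gene above 2 was Ccne1, a cyclin of the G1 to S transition, with 8, 23, 27 and 16 reads in the 4 libraries and a ratio of miR-26a KO to WT of 3.16 (1.37 to 8.17). It is also in the cell cycle list, of which 18 of 34 genes tested were above 2 and none below 0.5 in miR-26a KO over WT (median 2.07), and 21 of 34 above 2 in Cart-miR-23clus KO over WT. Ccnd2, a D-type cyclin and the most abundant gene of the target list, had 4256, 4404, 4204 and 3536 reads. Its ratio of miR-26a KO to WT was 1.14 (1.09 to 1.19) and of the mimic library to miR-26a KO 0.892 (0.860 to 0.937). Cdk6, the kinase partner of the D-type cyclins, had 209 reads in WT and 109 in miR-26a KO, a ratio of 0.573 (0.451 to 0.726), with 166 reads with the mimic and 81 in Cart-miR-23clus KO. It holds 2 seed matches, and its ratio of the mimic library to miR-26a KO was 1.42 (1.12 to 1.84), and that of Cart-miR-23clus KO to WT was 0.427 (0.334 to 0.568).

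**Figure D5:**
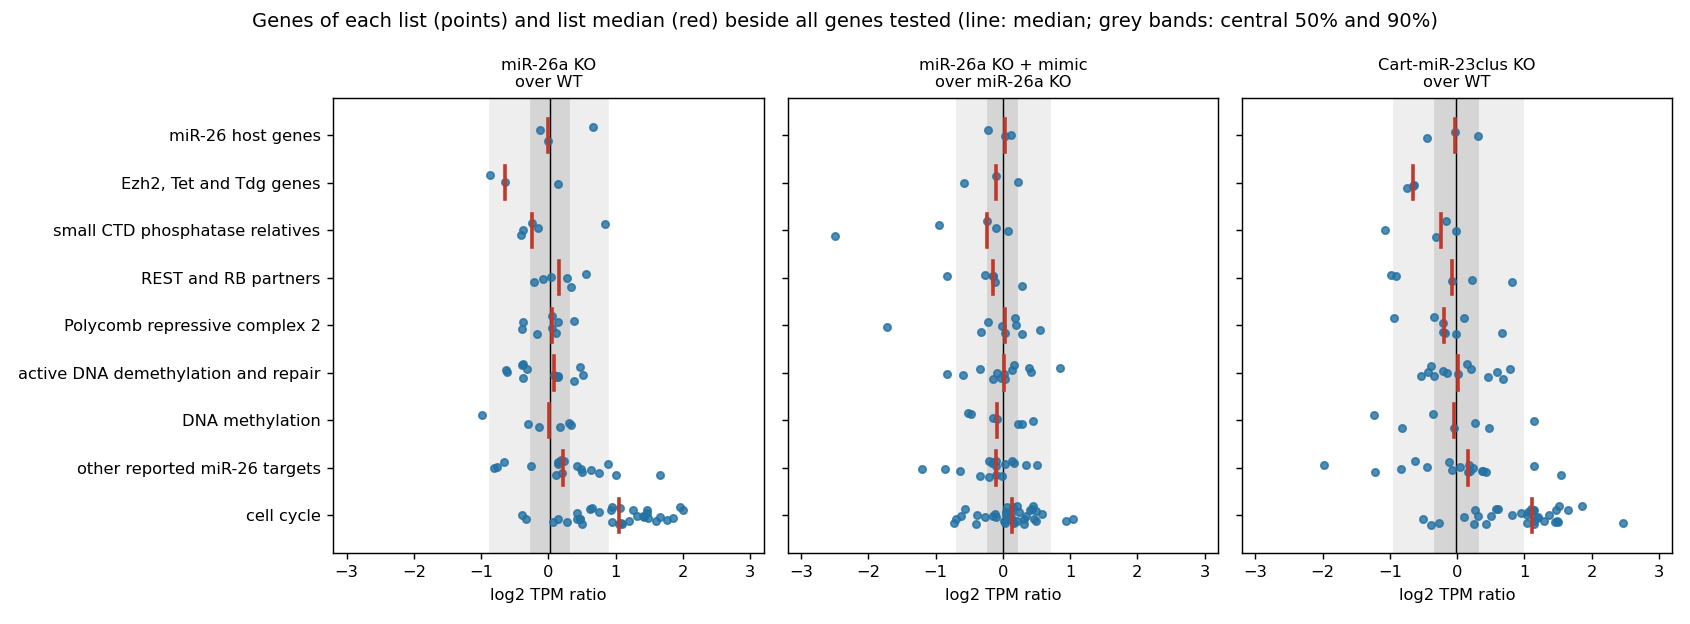
Log2 TPM ratios of the genes of each list (blue points) and the list median (red bar) in miR-26a KO over WT, the mimic library over miR-26a KO and Cart-miR-23clus KO over WT; the black line is the median of all genes tested and the grey bands hold the central 50% and 90% of them. The cell cycle list has medians of 2.07 and 2.16 as ratios over WT in the 2 knockouts, while the other 8 lists plotted have medians nearer to that of all genes.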

How the data were processed

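Libraries were made from total RNA with the QuantSeq 3′ kit (FWD) and sequenced as single-end reads of 75 bases, which the authors mapped to mm10 (GRCm38.p6, per the labels). The aligner, the counter, its strand setting and the annotation are not given in the sources used here. The deposited expected counts are whole reads per gene for 3 libraries. The deposited TPM of all 4 libraries are reads divided by 1 length per gene and scaled to the same sum in each library by the authors; for 4425 of 4473 genes with 1 transcript the length was that of the transcript within 1 base. Reads of the mimic library were recovered from its TPM: all 14429 values tested were whole within 0.01, and 588 genes were not recovered. The 8 genes, the lists and the comparisons were chosen with earlier results of these data known, and the lists were written from general knowledge.

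Levels were given with exact Poisson 95% intervals and folds as TPM ratios with Clopper-Pearson 95% intervals on reads, scaled to library totals; this scale differed from TPM by at most 1.02 times. All intervals and the limit of 3 counts cover counting error only. They treat reads as independent, which PCR copies are not, so they may be too narrow. Fold counts used genes with at least 20 reads in the 2 libraries together. Of the other lists, the gene with the most reads, the 2 largest and 2 smallest ratios of miR-26a KO to WT and genes past 2-fold could be named, as could the 3 genes most like each host; not all of them are given, and Glt8d2, Plod2, Slc7a11, Adam17 and Tut4, outside this rule, were chosen after their values were seen. The alternatives were CPM, TMM and DESeq2 scaling, pseudocounts, other filters, a 1.5-fold level, 99% intervals and other seed matches. The steps were tested on simulated data. Scaling factors came from DESeq2 1.42.0 and edgeR 4.0.16 under R 4.3.3, and other steps ran in Python 3.11.15 with scipy 1.17.1, pandas 2.3.3, numpy 2.4.6 and, for plots, matplotlib 3.10.9.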

Additional observations from a re-analysis of the deposited data

How the results depend on the processing

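The limit of these values is depth and the single library per condition, so a difference between cultures cannot be told apart from one between conditions. CPM, edgeR's TMM, DESeq2's size factors and 0.1 or 1 TPM added gave 120 further folds for the 6 genes with enough reads, and all 120 lay within the 95% interval of the TPM ratio. The direction differed in 1 of them, Ctdspl in miR-26a KO over WT, with 0.999 in TPM and 1.00 in CPM. Of 43 further counts of genes, 33 were within 1.5 times the count given above. At 1.5-fold in place of 2-fold, miR-26a KO over WT had 1 gene above (from 0) and 2 below (from 0), the mimic library over WT had 1 above (from 0) and 2 below (from 1), and Cart-miR-23clus KO over WT had 3 below (from 0). With TPM above 0 in both libraries as the only filter, Tet1 was added, and in miR-26a KO over WT also Tdg with 1 read in each, and 1 gene, Tet1, was below in miR-26a KO over WT and above in the mimic library over miR-26a KO. With at least 20 reads in each library, Tet3 was left out and 0 genes were below 2-fold in the mimic library over WT. With 99% intervals, 0 genes were above 1 in miR-26a KO over WT (from 1, Ctdsp1 being lost), and 1 was below 1 in the mimic library over WT (from 2, Tet3 being lost). No paired analysis was possible because the libraries number 1 per condition.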

Other observations

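Genes of the lists, picked after their values were seen, lay on either side of miR-26a KO in the mimic library, with and without a seed match. Ctdspl2, a relative of the hosts, had 30 reads in WT, 21 in miR-26a KO, 4 with the mimic and 13 in Cart-miR-23clus KO. Its ratio of the mimic library to miR-26a KO was 0.178 (0.0447 to 0.531). Jarid2, an accessory subunit of Polycomb repressive complex 2, had 40, 40, 13 and 19 reads in the same order, and a ratio of 0.304 (0.150 to 0.583). Both hold 1 seed match and had their lowest count in the mimic library. Plod2, a collagen lysyl hydroxylase with 2 seed matches, had 742, 941, 649 and 867 reads, with a ratio of 0.644 (0.586 to 0.718), and Slc7a11, the cystine transporter with 1 seed match, had 30, 46, 27 and 20 reads, with a ratio of 0.548 (0.330 to 0.907). Adam17, a sheddase with a seed match, had 93, 131, 122 and 94 reads and a ratio of 0.870 (0.679 to 1.13), an interval that includes 1. Cdk6, with 2 seed matches, went the other way, with 166 reads with the mimic and 109 in miR-26a KO, a ratio of 1.42 (1.12 to 1.84). Tut4, a uridylyltransferase without a seed match, had 19 and 41 reads, a ratio of 0.433 (0.239 to 0.768). Of the genes of the target list tested in this comparison, the 14 with a seed match had a median ratio of the mimic library to miR-26a KO of 0.916, and the 3 without one 0.934. An effect of the transfection itself was not tested.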
